A study of Mus musculus with 12 samples.

Results

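The contractile genes of smooth muscle were followed in cultured mouse astrocytes with and without a conditional deletion of *Rack7* (*Zmynd8*). They are 10 genes chosen by name from the deposited gene counts: *Acta2*, *Tagln*, *Cnn1*, *Myh11*, *Myl9*, *Tpm1*, *Tpm2*, *Actg2*, *Lmod1* and *Cald1*. All 10 were present among the 18903 genes of the count table, each with 1 identifier, and all 10 stayed in after edgeR's low-count filter, which kept 17938 genes. Primary astrocytes were grown from the brains of hGFAP-cre::Rack7+/+ mice, referred to as WT, and hGFAP-cre::Rack7 fl/fl mice, referred to as cKO, at P1, P6 and P8 (postnatal days 1, 6 and 8), with 2 biological repeats for each of the 6 groups. Both genotypes carried the hGFAP-Cre transgene under the human GFAP promoter, which is active in neural stem cells and part of their progeny. Brains were stripped of meninges, and the cultures were shaken to deplete microglia and oligodendrocytes, whose markers were still detected. The day is the age of the brain at dissection, and the cells were then grown in culture before sequencing. Each group is its own set of cultures, so day and genotype cannot be told apart from the culture preparation.

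Smooth muscle contracts by the sliding of actin and myosin filaments. In these cells calcium-calmodulin switches on a kinase that phosphorylates the regulatory light chain of myosin, while calponin and caldesmon restrain the motor and tropomyosin lines the actin filament. The genes are widely known as targets of serum response factor (SRF), which binds the CArG box and is driven by myocardin and by the actin-sensing MRTF coactivators. In the brain, arterial and arteriolar smooth muscle is the main source of vascular members such as *Acta2*, *Tagln*, *Cnn1* and *Myh11*, while *Actg2* is mainly enteric. Several members, *Acta2* and *Tagln* above all, are also expressed by fibroblasts, by myofibroblasts and by many adherent cells in culture.

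The 10 genes are spread over the genome, with positions given on GRCm38 (GENCODE vM21). The smooth muscle actins are *Acta2* (ENSMUSG00000035783, chr19:34241090-34255590, minus strand) and *Actg2* (ENSMUSG00000059430, chr6:83512905-83536265, minus strand). The myosin subunits are the heavy chain *Myh11* (ENSMUSG00000018830, chr16:14194535-14291372, minus strand) and the regulatory light chain *Myl9* (ENSMUSG00000067818, chr2:156775420-156781658, plus strand). Actin-binding regulators are *Tagln* (ENSMUSG00000032085, chr9:45929619-45936058, minus strand), *Cnn1* (ENSMUSG00000001349, chr9:22099216-22109630, plus strand) and *Cald1* (ENSMUSG00000029761, chr6:34598500-34775473, plus strand). The filament proteins are *Tpm1* (ENSMUSG00000032366, chr9:67022590-67049406, minus strand), *Tpm2* (ENSMUSG00000028464, chr4:43514711-43523765, minus strand) and *Lmod1* (ENSMUSG00000048096, chr1:135324807-135368065, plus strand), which encodes a leiomodin that starts new actin filaments. None of the 10 shared an exact window of 100 bases, read in the sense direction, with the annotated transcripts of another gene, including the closely related actins. Windows on the opposite strand were not compared. Exons of *Tagln* overlap those of *Pcsk7* and of the antisense transcript AC122273.1 on the opposite strand, by up to 1241 bases, and no strand setting of the counting was found in the labels or methods.

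RefSeq promoter sequences of GRCm38.p6 were at hand for 7 of the 10 genes, and 250 bases upstream of each start were searched for the CArG box, since it is the element the set is known for. Of the 7, 1 gene (*Myl9*) held an exact CArG box and 5 genes (*Acta2*, *Myl9*, *Tpm1*, *Lmod1* and *Cald1*) held one with at most 1 mismatch. Among all 32851 promoter windows of the same length, 1.47% held an exact box and 18.6% held one with at most 1 mismatch. The motif reads the same on both strands. The sites are given here with the 10 bases of the box in capitals and the distance from the RefSeq start of transcription to the box's first base, because the CArG box is the element this gene set is known for. GENCODE places the ends of *Acta2* and *Tpm1* further upstream than RefSeq does, so both *Acta2* sites and the second *Tpm1* site, though before the RefSeq start, lie inside the GENCODE gene.

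Acta2, 84 bases upstream, chr19:34255438-34255467, minus strand: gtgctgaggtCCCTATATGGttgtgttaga
Acta2, 34 bases upstream, chr19:34255388-34255417, minus strand: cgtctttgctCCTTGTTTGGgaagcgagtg
Myl9, 161 bases upstream, exact, chr2:156775293-156775322, plus strand: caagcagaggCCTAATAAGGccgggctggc
Myl9, 99 bases upstream, chr2:156775355-156775384, plus strand: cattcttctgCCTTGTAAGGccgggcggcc
Tpm1, 221 bases upstream, chr9:67049415-67049444, minus strand: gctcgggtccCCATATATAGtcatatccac
Tpm1, 80 bases upstream, chr9:67049274-67049303, minus strand: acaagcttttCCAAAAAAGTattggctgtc
Lmod1, 189 bases upstream, chr1:135324614-135324643, plus strand: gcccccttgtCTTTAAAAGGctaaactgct
Lmod1, 164 bases upstream, chr1:135324639-135324668, plus strand: ctgctctgtaCTAAATTTGGtcacgcagcg
Cald1, 203 bases upstream, chr6:34598291-34598320, plus strand: acggtttcaaGCTTTTTAGGacttggtttt

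No such box was found in the windows of *Cnn1* and *Tpm2*, nor in the second, internal start of *Cald1*. The *Cnn1* window is given for comparison, because *Cnn1* was among the members that differed most between genotypes: its 213 bases before the first annotated exon (chr9:22099003-22099215, plus strand) carry no capitals.

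Cnn1: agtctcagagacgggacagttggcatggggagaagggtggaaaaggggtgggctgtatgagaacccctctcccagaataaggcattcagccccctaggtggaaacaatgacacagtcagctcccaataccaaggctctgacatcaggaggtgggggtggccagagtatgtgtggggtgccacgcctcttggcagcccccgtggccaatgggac

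The E-box (CANNTG) was found in 6 of the 7 genes against 66.2% of all windows, and the TATA box (TATAAA, either strand) in 1 of 7, the internal start of *Cald1*, against 12.4%. These matches describe the letters of the windows and are no measurement of binding.

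Library totals lay between 54413504 and 89183250 counts, and values are given as CPM, the counts per 1000000 with TMM-normalized library sizes. *Zmynd8* was higher in the libraries labelled cKO at each time point, with 213 and 216 CPM in cKO against 136 and 136 CPM in WT at P1. At P6 the values were 242 and 230 CPM in cKO against 114 and 116 CPM in WT, and at P8 they were 160 and 171 CPM in cKO against 100 and 104 CPM in WT, although a deletion would lower it if the transcript were lost. This count covers the whole gene and not the floxed exons alone, so it does not check the labels. Genotypes are named by their labels, and every direction rests on them. Astrocyte markers were present (8 of 9 listed genes, led by *Aqp4*, *Gfap* and *Slc1a3*), but their sum was lowest in the P8 libraries labelled cKO, at 567 to 589 CPM against 1207 to 2162 CPM in the groups labelled WT.

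Differences between groups were tested with edgeR's quasi-likelihood test on all 12 libraries with Benjamini-Hochberg adjustment over the 17938 genes, and a gene was called at an adjusted p below 0.05 with a fold change of at least 1.5. A difference of genotype effects between days was called at an adjusted p below 0.05 with no fold threshold. Values after ± are the SE of a log2 fold change (cKO minus WT unless said otherwise), or the SD of 2 libraries for a level. The cKO and WT libraries did not overlap, in either direction, for 51.2%, 59.0% and 70.8% of all genes tested at P1, P6 and P8. Separation of this kind is therefore common in these data.

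**Figure D1:**
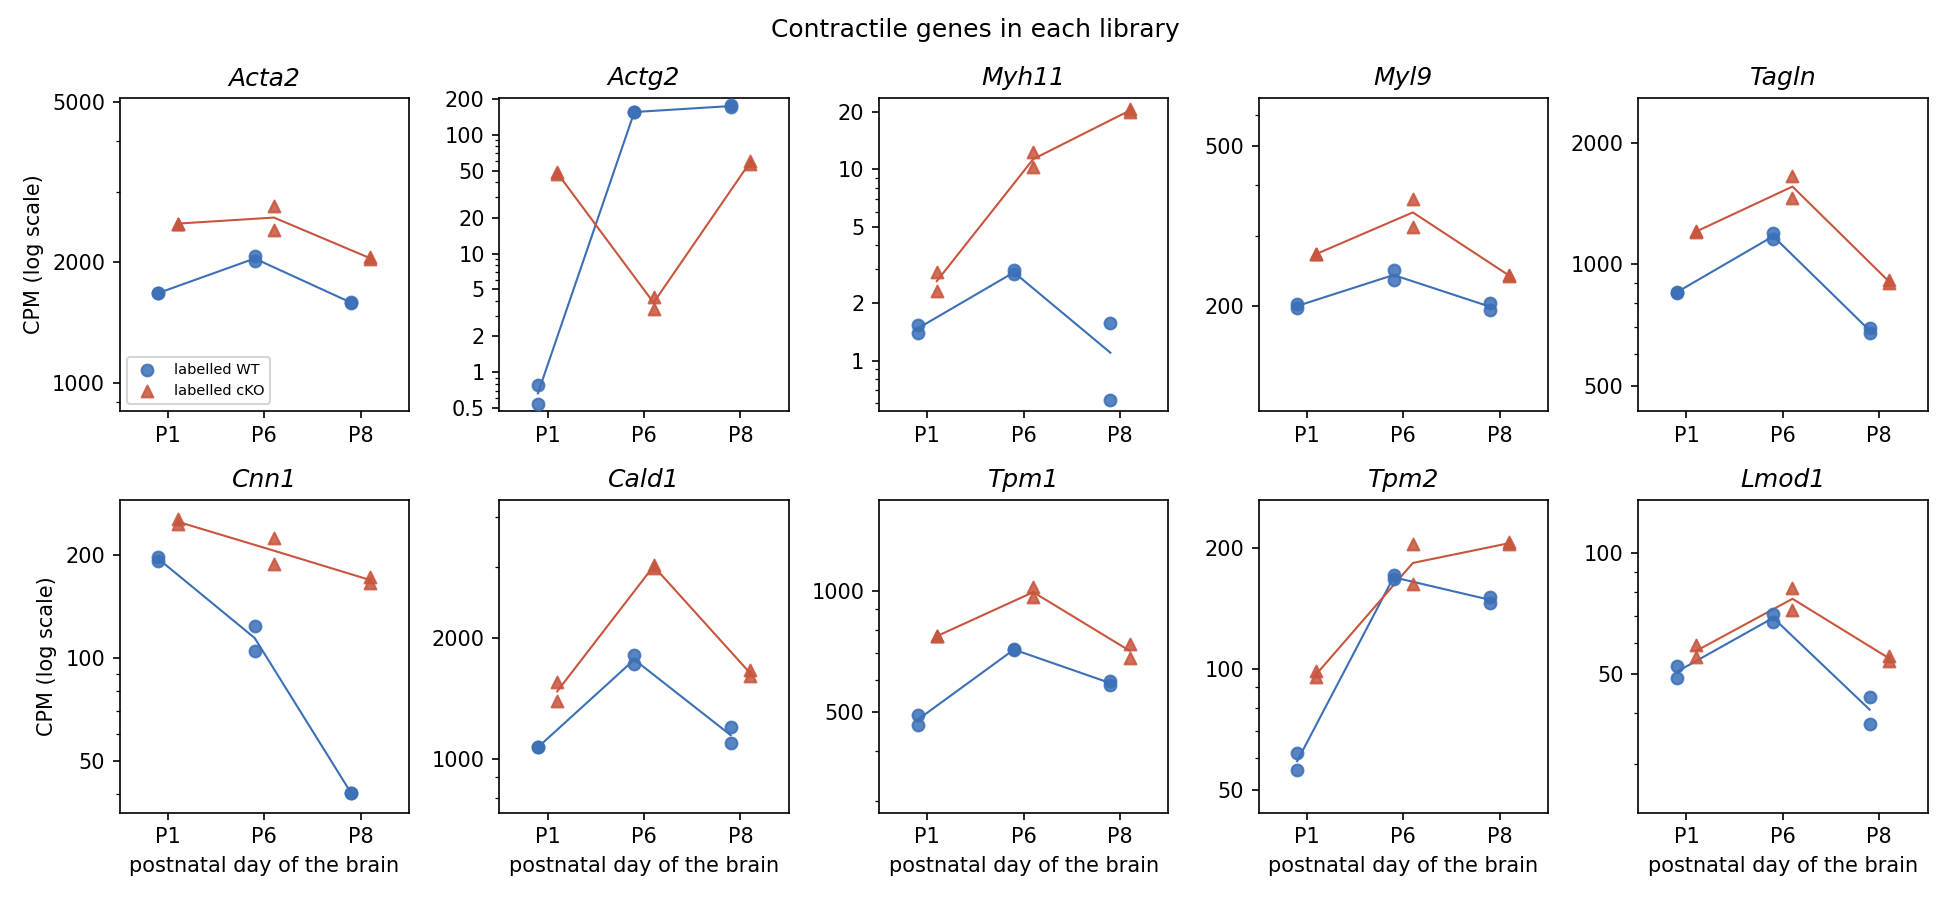
CPM (log axis) of each contractile gene in the 12 libraries by postnatal day, with circles for libraries labelled WT and triangles for libraries labelled cKO; lines join the means of 2 libraries. *Actg2* runs from 0.536 to 179 CPM and changes order between the labels, *Myh11* separates the labels progressively up to 20.7 against at most 1.58 CPM at P8, and *Acta2*, *Myl9*, *Tagln*, *Cnn1*, *Cald1* and *Tpm1* are above WT in both cKO libraries at each day.

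Contractile transcripts were abundant in these cultures, with *Acta2* and *Tagln* at the top and *Myh11* at the bottom. For comparison between genes, counts were divided by the length of the merged exons and scaled to the same sum in each library (a length-corrected level, TPM-like). On this scale *Acta2* held 2307 ± 20.6 to 3608 ± 12.9 in the 6 groups and *Tagln* 1100 ± 24.1 to 2347 ± 164, and they were the first and the second of the 10 in each group. *Myl9* was the third in each group, from 548 ± 17.0 to 881 ± 85.7. *Cald1* (287 ± 1.36 to 747 ± 4.05) and *Tpm1* (238 ± 10.7 to 457 ± 10.8) followed in 5 of the groups. With the length of the longest transcript in place of the merged exons, *Cald1*, which has 18 annotated transcripts, rose to the third place in each group and *Myl9* moved to the fourth or the fifth. *Lmod1* stayed between 33.0 ± 3.54 and 58.3 ± 4.09, and *Myh11* was the tenth in each group, between 0.462 ± 0.283 and 7.62 ± 0.217. In P8 WT *Actg2* (358 ± 14.0) took the fourth place, and *Cald1* (303 ± 19.0) and *Tpm1* (290 ± 4.56) lay within their spread of each other. By the length of the longest transcript *Actg2* was at rank 6 in P8 WT, with a mean of 340.

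*Actg2*, the enteric gamma actin, was the member that varied most, and its difference between genotypes changed direction between P1 and P6. At P1 it was at 0.536 and 0.786 CPM (32 and 64 counts) in the libraries labelled WT and at 48.5 and 47.2 CPM (2851 and 2687 counts) in those labelled cKO. At P6 the order was the opposite, with 155 and 156 CPM in WT against 4.33 and 3.38 CPM in cKO. At P8 the values were 179 and 170 CPM in WT against 60.6 and 56.8 CPM in cKO. Groups did not overlap at any time point. The log2 fold change was 6.15 ± 0.17 at P1 (adjusted p = 5.05e-08), -5.34 ± 0.15 at P6 (adjusted p = 3.30e-08) and -1.58 ± 0.13 at P8 (adjusted p = 1.17e-05). The differences between these effects were called as well, at -11.48 ± 0.22 from P1 to P6, 3.76 ± 0.18 from P6 to P8 and -7.72 ± 0.21 from P1 to P8 (adjusted p of at most 1.44e-06). Fibroblast and meningeal markers had the same order between the labels, and their sum was 369 to 381 CPM in WT and 2395 to 2425 CPM in cKO at P1, 6470 to 6526 against 2417 to 2594 CPM at P6, and 25455 to 25573 against 8044 to 8286 CPM at P8. The likeness is in the order between the labels and not in the steps between days. In cKO from P1 to P6, mean *Actg2* went from 47.8 to 3.85 CPM and the mean marker sum from 2410 to 2506 CPM. In WT from P6 to P8, mean *Actg2* went from 156 to 175 CPM and the mean marker sum from 6498 to 25514 CPM. The part of these markers in the values of *Actg2* was not tested.

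*Acta2*, the vascular alpha actin, did not follow *Actg2*. It was at 1675 and 1679 CPM in WT and 2497 and 2496 CPM in cKO at P1, at 2010 and 2078 against 2767 and 2401 CPM at P6, and at 1595 and 1581 against 2057 and 2036 CPM at P8. Both cKO libraries lay above both WT libraries each time, by 0.57 ± 0.05, 0.34 ± 0.05 and 0.37 ± 0.05 on the log2 scale (adjusted p = 1.90e-04, 0.00151 and 6.45e-04), which is a 1.49-fold, 1.26-fold and 1.29-fold difference and thus under the fold threshold. Because the actins differ in this way, *Actg2* as a share of the summed TPM-like level of both went from 0.0451% and 0.0660% in P1 WT to 2.67% and 2.60% in P1 cKO, from 9.81% and 9.60% in P6 WT to 0.220% and 0.198% in P6 cKO, and from 13.7% and 13.2% in P8 WT to 3.99% and 3.78% in P8 cKO.

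*Myh11*, the smooth muscle myosin heavy chain, differed more between the genotypes at P8 than at P1 or P6. At P1 it was at 1.54 and 1.40 CPM in WT and 2.91 and 2.30 CPM in cKO, a log2 fold change of 0.82 ± 0.33 that was not called (adjusted p = 0.182). At P6 it was at 2.82 and 2.96 CPM against 10.2 and 12.4 CPM (1.97 ± 0.32, adjusted p = 0.00160), and at P8 at 0.622 and 1.58 CPM against 19.9 and 20.7 CPM (4.18 ± 0.35, adjusted p = 1.67e-05). The effect at P8 exceeded those at P6 (by 2.22 ± 0.45, adjusted p = 0.00710) and P1 (by 3.36 ± 0.47, adjusted p = 6.23e-04). The WT libraries at P8 are the least alike, and without the second of them the log2 fold change at P8 was 5.02, without the first 3.68.

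*Myl9*, the light chain, moved little beside the heavy chain. It was at 203 and 198 CPM in WT and 270 and 270 CPM in cKO at P1, at 232 and 247 against 370 and 315 CPM at P6, and at 204 and 196 against 239 and 238 CPM at P8. Its log2 fold changes of 0.43 ± 0.07, 0.52 ± 0.07 and 0.26 ± 0.07 (adjusted p = 0.00447, 5.11e-04 and 0.0174) were all under the fold threshold. No WT library reached a cKO library of its day, while 51.2%, 59.0% and 70.8% of all genes tested were separated in either direction.

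*Cnn1*, calponin 1, which restrains the actin-activated motor, was lower in WT at each later day of dissection, and its difference between the genotypes was wider. It was at 192 and 198 CPM in WT and 246 and 255 CPM in cKO at P1, at 105 and 124 against 224 and 189 CPM at P6, and at 40.2 and 40.3 against 172 and 166 CPM at P8. The groups did not overlap on any day, which held for most of the genes tested. Its log2 fold change was 0.36 ± 0.09 at P1 (adjusted p = 0.0371, fold 1.28), 0.85 ± 0.09 at P6 (adjusted p = 1.32e-04) and 2.07 ± 0.09 at P8 (adjusted p = 3.01e-07). The effect grew by 0.49 ± 0.13 from P1 to P6 (adjusted p = 0.0313) and by 1.22 ± 0.13 from P6 to P8 (adjusted p = 1.53e-04). The first of these lost its call without any 1 of 8 libraries (P1 WT, P1 cKO and P8 cKO replicates 1 and 2, P6 WT replicate 1 and P6 cKO replicate 1), with log2 values of 0.36 to 0.51.

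*Cald1*, caldesmon, was at 1068 and 1067 CPM in WT and 1548 and 1393 CPM in cKO at P1, at 1809 and 1718 against 3036 and 2985 CPM at P6, and at 1091 and 1197 against 1658 and 1609 CPM at P8. It was called at P6 (0.77 ± 0.06, adjusted p = 1.25e-05), while 0.46 ± 0.06 at P1 and 0.51 ± 0.06 at P8 were under the fold threshold (adjusted p = 9.68e-04 and 1.01e-04). *Tagln*, transgelin, an actin cross-linker, was at 856 and 850 against 1209 and 1206 CPM at P1, 1154 and 1198 against 1658 and 1466 CPM at P6, and 694 and 676 against 916 and 899 CPM at P8. Its log2 fold changes of 0.50 ± 0.05, 0.41 ± 0.05 and 0.41 ± 0.05 (adjusted p of at most 3.29e-04) were nearly equal over the days. *Pcsk7* was at no more than 32.8 CPM and AC122273.1 at no more than 94.7 CPM in any library, against 676 to 1658 CPM for *Tagln*.

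Both tropomyosins were called at P1, and at no other day. *Tpm1* was at 491 and 463 CPM in WT and 771 and 770 CPM in cKO at P1 (0.69 ± 0.05, adjusted p = 2.51e-05), at 712 and 715 against 1019 and 962 CPM at P6 (0.47 ± 0.05, adjusted p = 8.85e-05), and at 581 and 596 against 679 and 738 CPM at P8 (0.27 ± 0.05, adjusted p = 0.00199). Its differences at P6 and P8 were under the fold threshold alone. *Tpm2* was at 61.7 and 56.1 against 98.6 and 95.4 CPM at P1 (0.72 ± 0.09, adjusted p = 0.00131), at 171 and 167 against 204 and 163 CPM at P6 (0.12 ± 0.09, adjusted p = 0.407), and at 146 and 151 against 206 and 204 CPM at P8 (0.47 ± 0.09, adjusted p = 0.00354). The groups of *Tpm2* overlapped at P6, where the 95% interval of the difference ran from -0.09 to 0.33. The effect on *Tpm1* was smaller at P8 than at P1 by 0.42 ± 0.07 on the log2 scale (adjusted p = 0.00139), and that on *Tpm2* smaller at P6 than at P1 by 0.60 ± 0.13 (adjusted p = 0.0135).

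*Lmod1* was not called on any day. It was at 49.0 and 52.5 against 59.3 and 55.1 CPM at P1, 70.8 and 67.5 against 81.9 and 72.3 CPM at P6, and 37.7 and 44.1 against 54.1 and 55.6 CPM at P8, with log2 fold changes of 0.17 ± 0.09, 0.16 ± 0.09 and 0.42 ± 0.09. Only the last had an adjusted p under the threshold (0.00601), and its fold of 1.34 was under that for a call.

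**Figure D2:**
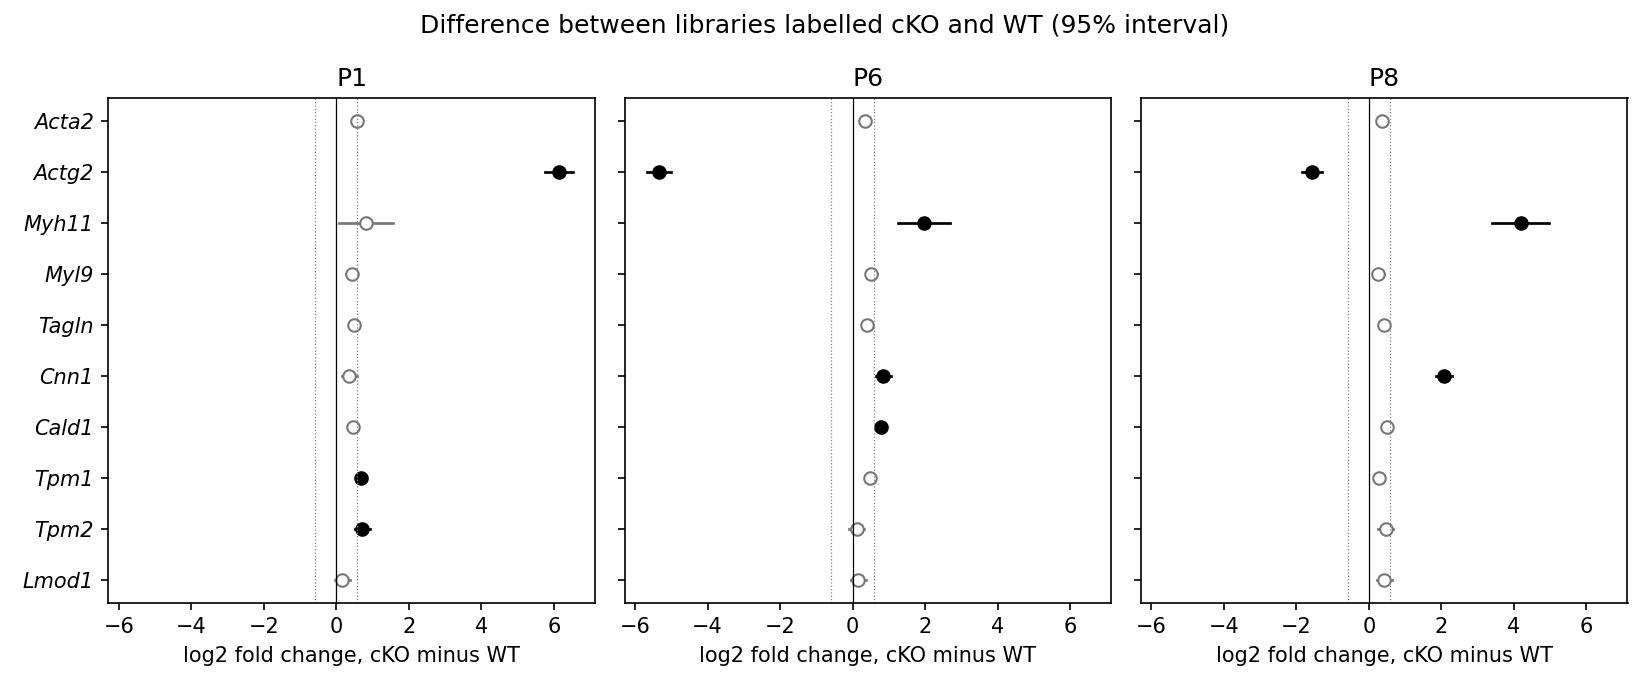
Log2 fold change between libraries labelled cKO and WT at P1, P6 and P8 for each contractile gene, with its 95% interval; filled points are called, open points are not, and dotted lines mark the fold threshold of 1.5 in either direction. *Actg2* lies at 6.15, -5.34 and -1.58 on the 3 days, *Myh11* and *Cnn1* move to the right from P1 to P8, and the other 7 genes stay between 0.12 and 0.77.

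Counted over the set, 3 of 10 members were called higher in the libraries labelled cKO at P1 (*Tpm1*, *Tpm2* and *Actg2*), 3 at P6 (*Cnn1*, *Myh11* and *Cald1*) and 2 at P8 (*Cnn1* and *Myh11*). Of all genes tested, 4.01%, 7.16% and 11.2% were called higher on these days. No member was called lower at P1, and *Actg2* alone at P6 and at P8, against 0.892%, 6.38% and 8.37% of all genes. The fold threshold decided most of these counts. At an adjusted p below 0.05 with no fold threshold, a rule added after the values were seen, 8 of 10 members were higher at P1, 7 at P6 and 9 at P8, against 6.54%, 13.2% and 19.6% of all genes, and 0, 1 and 1 were lower, against 2.94%, 12.5% and 14.8%. All genes tested were not matched to the members for level, and small differences pass this rule more easily at high counts. The median log2 fold change of the members was 0.54, 0.44 and 0.41, while that of all genes tested was 0, 0 and 0.01. The sum over the 10 genes was 4566 to 4599 CPM in WT and 6590 to 6750 CPM in cKO at P1, 6422 to 6473 against 8569 to 9375 CPM at P6, and 4568 to 4654 against 6023 to 6061 CPM at P8. Most of that sum was *Acta2*, *Tagln* and *Cald1*.

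Over the steps between days, the members were also compared within each genotype. In WT, *Myh11* (0.98 ± 0.33, adjusted p = 0.0396), *Tpm2* (1.52 ± 0.09), *Actg2* (7.85 ± 0.18, adjusted p = 2.17e-09) and *Cald1* (0.72 ± 0.06) were called higher at P6 than at P1, and *Cnn1* lower (-0.77 ± 0.09). That is 4 of 10 up and 1 down, against 12.2% and 10.9% of all genes. The rise of *Myh11* was lost without any 1 of 8 libraries (both replicates of P1 WT, P6 WT, P6 cKO and P8 cKO), with log2 values of 0.91 to 1.05. From P6 to P8 in WT no member was called higher and 5 were called lower: *Tagln* (-0.78 ± 0.05), *Cnn1* (-1.51 ± 0.09), *Myh11* (-1.38 ± 0.33, adjusted p = 0.0109), *Lmod1* (-0.76 ± 0.09) and *Cald1* (-0.62 ± 0.06), against 8.66% and 10.3% of all genes. *Cald1* fell under the fold threshold without P8 WT replicate 1 (-0.56), and the fall of *Myh11* was -2.21 without P8 WT replicate 2.

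In cKO, *Myh11* (2.12 ± 0.32, adjusted p = 7.08e-04), *Tpm2* (0.92 ± 0.09) and *Cald1* (1.03 ± 0.06) were called higher at P6 than at P1, and *Actg2* lower (-3.63 ± 0.14, adjusted p = 1.32e-07), so 3 rose and 1 fell against 11% and 10.4% of all genes. From P6 to P8 *Actg2* rose (3.93 ± 0.14, adjusted p = 6.33e-08), and *Tagln* (-0.78 ± 0.05) and *Cald1* (-0.88 ± 0.06) fell, against 11.9% and 12.2% of all genes. Over this step *Myh11*, called lower in WT, had a value of 0.84 ± 0.30 in cKO (adjusted p = 0.0527). *Actg2* in WT was at 155 to 156 CPM at P6 and 170 to 179 CPM at P8, a difference of 0.17 ± 0.12 that was not called.

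The difference of genotype effects between days was called for 2 members upward (*Cnn1* and *Cald1*) and 2 downward (*Tpm2* and *Actg2*) from P1 to P6, against 7.12% and 8.19% of all genes. From P6 to P8 it was called for 3 upward (*Cnn1*, *Myh11* and *Actg2*) and 1 downward (*Cald1*), against 12.6% and 8.83%, and from P1 to P8 for 2 upward (*Cnn1* and *Myh11*) and 2 downward (*Tpm1* and *Actg2*), against 14% and 11.7%. The effect on *Cald1* was 0.31 ± 0.08 larger at P6 than at P1 (adjusted p = 0.0303) and 0.26 ± 0.08 smaller at P8 than at P6 (adjusted p = 0.0491), and both lost their call when single libraries were left out. The first was lost without any 1 of 6 libraries (P1 WT and P6 cKO replicates 1 and 2, P1 cKO replicate 2 and P6 WT replicate 2), with values of 0.23 to 0.32. The second was lost without any 1 of 9 (P1 WT, P6 WT, P6 cKO and P8 cKO replicates 1 and 2 and P8 WT replicate 2), with values of -0.30 to -0.19. These comparisons share their libraries, so their counts are not independent of each other.

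Across the 12 libraries the members fell into a tight group and a few that stood apart. Over the libraries, which are 6 groups of 2 and share their depth and normalization with every gene compared, Pearson's r of log2 CPM was 0.94 for *Acta2* with *Myl9*, and 0.74 to 0.94 for every pair among *Acta2*, *Myl9*, *Tagln*, *Tpm1*, *Lmod1* and *Cald1*. *Actg2* had r between -0.56 (with *Cnn1*) and 0.60 (with *Tpm2*) with the other members, and *Cnn1* with *Tpm2* had -0.27. These are descriptions of the profiles and carry no test.

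**Figure D3:**
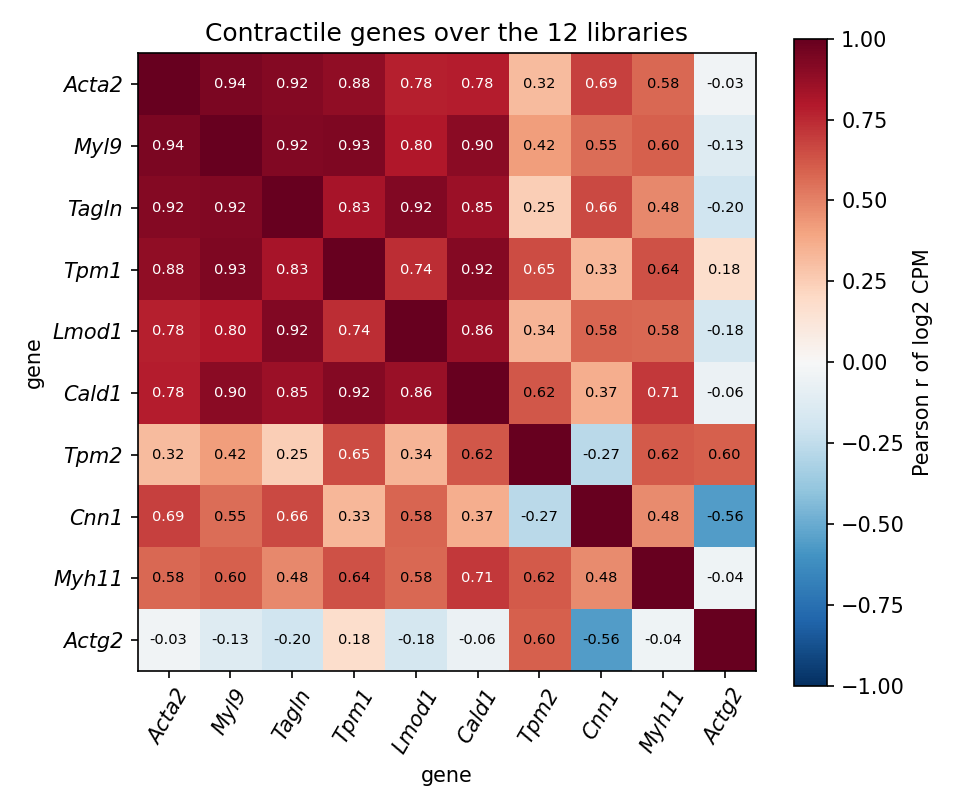
Pearson correlation of log2 CPM between each pair of contractile genes over the 12 libraries, on a colour scale from -1 (blue) to 1 (red). The block from *Acta2* to *Cald1* holds values of 0.74 to 0.94, while the row of *Actg2* runs from -0.56 with *Cnn1* to 0.60 with *Tpm2*.

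Genes outside the lists with the profile most like the mean of the 10 members, among 15030 genes with a mean of at least 1 CPM, were *Lims2* (r = 0.97 over 12 libraries), *Foxa1* (0.97), *Foxa2* (0.97), *Sema7a* (0.96), *Hspb1* (0.95) and Gm3716 (0.95). *Lims2* encodes a focal adhesion adaptor and *Hspb1* a small heat shock protein. *Hspb1* had group means of 13.9, 30.5, 40.7, 70.5, 21.0 and 39.7 CPM in P1 WT, P1 cKO, P6 WT, P6 cKO, P8 WT and P8 cKO. Genes most like *Acta2* were *Casq1* (0.95), *Adamts8* (0.95), *Nr1d1* (0.94), A730020M07Rik (0.93) and AC122273.1 (0.92). *Casq1*, calsequestrin 1 of skeletal muscle, had group means of 30.2, 418, 42.4, 734, 8.54 and 119.6 CPM in the same order, a far wider range than *Acta2* has. AC122273.1 is the antisense transcript over *Tagln*, and without a known strand setting its reads and those of *Tagln* cannot be told apart. The profile of *Actg2*, looked up after its values were seen, was most like those of *Col6a3* (0.98, a collagen VI chain), *Esrp2* (0.97) and *Adam19* (0.97), with *Mgp*, matrix Gla protein, at 0.96.

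Markers of other cell types moved with some of these genes. Of the 10 listed fibroblast and meningeal genes, whose sums stand beside *Actg2* above, 8 were in the table, led by *Col1a1*, *Col1a2* and *Col3a1*. *Lum* or *Dpt* was at 0 in some libraries. This order between the labels, higher in cKO at P1 and lower at P6 and P8, is that of *Actg2*, and 5, 0 and 1 of the 8 were called higher and 0, 5 and 6 lower on the 3 days. It is not the order of *Acta2*, *Tagln*, *Myl9*, *Cald1* and *Tpm1*, whose values were above WT in the cKO libraries each day. Endothelial markers (5 of 8 listed genes) summed to 23.9 to 26.1 against 49.5 to 51.9 CPM at P1, 122 to 126 against 58.8 to 62.6 CPM at P6 and 149 to 162 against 39.1 to 41.6 CPM at P8, and none was at 0. *Cdh5*, VE-cadherin of endothelial junctions, carried most of the P8 sum in WT, at 125 and 141 CPM against 10.1 and 9.59 CPM in cKO. *Flt1*, a VEGF receptor, had another order, at 5.78 and 6.00 against 16.3 and 17.1 CPM at P1, 39.8 and 33.9 against 51.8 and 54.7 CPM at P6, and 6.36 and 3.92 against 19.9 and 18.9 CPM at P8. Of the 5, 3, 0 and 1 were called higher and 0, 4 and 2 lower in cKO on the 3 days, and the median log2 fold change at P8 was 0.17.

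Pericyte and mural markers without the contractile genes (8 of 12 listed genes, led by *Pdgfrb*, *Mcam* and *Anpep*) were at 215 to 216 against 260 to 268 CPM at P1, 455 to 472 against 449 to 453 CPM at P6, and 493 to 494 against 393 to 402 CPM at P8. *Rgs5*, a defining pericyte gene, was at 0.614 to 6.66 CPM, and *Ndufa4l2* was at 0 in some libraries. Of the 8, 2, 1 and 2 were called higher and 0, 5 and 2 lower in cKO at P1, P6 and P8, with median log2 fold changes of 0.39, -0.65 and -0.52. The near-equal sums at P6 include *Mcam* at 74.0 and 74.5 CPM in WT against 210 and 201 CPM in cKO, against the direction of the median. Striated muscle markers (2 of 12 listed genes, *Tnnt2* and *Tnnt3*) summed to 0.321 to 7.90 CPM. The part of these cell types in the values of the contractile genes was not tested, and in bulk RNA fewer cells of a type and less RNA per cell cannot be told apart.

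**Figure D4:**
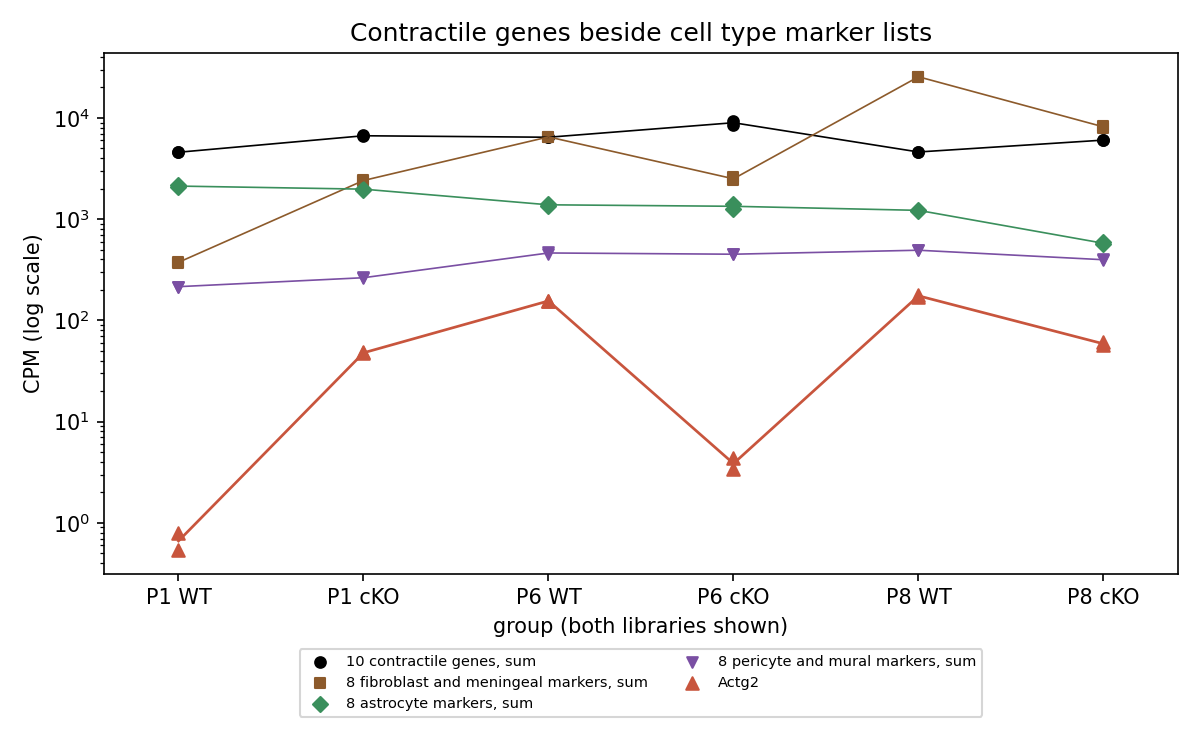
Summed CPM (log axis) of the 10 contractile genes and of the marker lists for fibroblast and meningeal cells, astrocytes, and pericytes and mural cells, with *Actg2* alone, in both libraries of each group; lines join group means. The fibroblast sum and *Actg2* are both higher in cKO at P1 and lower at P6 and P8, while the sum of the 10 contractile genes is higher in cKO on each day.

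Microglial RNA remained in the cultures. The sum of 5 microglia markers (*Csf1r*, *Cx3cr1*, *Aif1*, *Tmem119* and *P2ry12*) was 941 to 954 CPM in WT against 673 to 711 CPM in cKO at P1, 631 to 648 against 579 to 584 CPM at P6, and 777 to 788 against 1107 to 1113 CPM at P8, where *Cnn1* and *Myh11* also differed most. Of the 5, 0, 0 and 2 were called higher and 2, 1 and 1 lower, and their part in the values of the contractile genes was not tested. In the astrocyte list 1, 0 and 0 of 8 were called higher and 0, 1 and 4 lower. Oligodendrocyte lineage markers (6 of 7, led by *Cnp*, *Olig1* and *Mbp*) had 0, 0 and 1 called higher and 0, 2 and 2 lower, neuron markers (4 of 6, led by *Stmn2*, *Map2* and *Tubb3*) 1, 3 and 2 higher and none lower, and ependymal and choroid plexus markers (5 of 6, led by *Foxj1*, *Folr1* and *Ttr*) 1, 2 and 2 higher and 0, 1 and 0 lower.

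Other genes of the contractile apparatus were read from a list of 28, of which 27 were in the table. At P1 6 were called higher in cKO and none lower, at P6 4 higher and 4 lower, and at P8 8 higher and 4 lower, with median log2 fold changes of 0.33, -0.32 and 0.33. *Flna*, *Actn1* and *Palld*, which cross-link and anchor actin filaments, were the most abundant. *Flna* was at 1810 and 1816 against 2119 and 2164 CPM at P1 and at 1840 and 1687 against 2176 and 2191 CPM at P8.

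*Mylk* and *Csrp2* had the order of *Actg2* between the labels. *Mylk*, the myosin light chain kinase, was at 2.41 and 2.99 CPM in WT and 7.96 and 9.72 CPM in cKO at P1 (1.71 ± 0.14, adjusted p = 6.36e-05), at 16.0 and 14.7 against 8.62 and 8.40 CPM at P6, and at 58.6 and 59.7 against 17.9 and 16.0 CPM at P8 (-1.81 ± 0.13, adjusted p = 5.83e-06). *Csrp2*, a LIM protein of smooth muscle, was at 3.22 and 3.42 against 5.97 and 5.11 CPM at P1 and was called lower at P6 (-2.26 ± 0.12) and P8 (-2.12 ± 0.12). *Zyx*, zyxin of focal adhesions, was called higher at P1 (1.11 ± 0.12) and lower at P6 (-1.33 ± 0.12) and was at 230 and 239 CPM in WT against 301 and 328 CPM in cKO at P8, with *Fhl2* (1.28 ± 0.13) called higher at P1, *Itga8* (-1.27 ± 0.11) lower at P6 and *Susd5* (-2.69 ± 0.63) lower at P8. *Kcnmb1*, like *Myh11*, was higher in both libraries labelled cKO than in both WT libraries on each day. At P1 *Kcnmb1* was at 1.37 and 0.406 against 3.59 and 3.81 CPM, which was not called (2.08 ± 0.58, adjusted p = 0.0570). Its effect, unlike that of *Myh11*, was no larger at P8 than at P6. *Kcnmb1*, which encodes the beta subunit of the large-conductance potassium channel of smooth muscle, was at 0.742 and 0.876 CPM in WT against 10.9 and 10.9 CPM in cKO at P6 (3.75 ± 0.60, adjusted p = 0.00160) and at 0.101 and 0.485 against 2.67 and 3.03 CPM at P8 (3.24 ± 0.63, adjusted p = 0.00350). *Sorbs2* was called higher at P6 (0.99 ± 0.07) and P8 (1.57 ± 0.08), *Nexn* (0.99 ± 0.08) at P6 and *Fhl1* at P8 (72.8 and 71.8 against 208 and 200 CPM).

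Of 21 listed cytoskeletal and striated relatives of the members, 18 were in the table, 1, 2 and 4 were called higher and 0, 0 and 1 lower at P1, P6 and P8, and the median log2 fold changes were 0.13, 0.15 and 0.21. *Actb*, *Actg1* and *Myh9* were the most abundant. *Actb* was at 2029 and 2016 CPM in WT and 3823 and 4193 CPM in cKO at P8 (0.99 ± 0.06, adjusted p = 2.14e-06). *Myl12a* was called higher at P1 (0.61 ± 0.15), *Myl12b* at P6 (0.76 ± 0.06), *Tmod1* at P6 and P8 (1.27 ± 0.18 and 1.54 ± 0.18) and *Tagln2* at P8 (0.64 ± 0.12), and *Tagln3*, a neuronal relative of transgelin, was called lower at P8 (-2.00 ± 0.29).

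Among the regulators of SRF 14 of 15 listed genes were in the table, of which 2, 1 and 1 were called higher and 0, 3 and 2 lower in cKO at P1, P6 and P8, with median log2 fold changes of 0.02, -0.13 and 0.21. *Rhoa*, *Rock2* and *Rock1*, which raise actin polymerization upstream of the MRTF coactivators, were the most abundant. *Srf* itself was not called at any day and lay between 46.7 and 79.5 CPM in all libraries. *Rock2* was called higher at P6 (0.78 ± 0.05) and P8 (0.75 ± 0.05).

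The regulator with the widest range was *Prdm6*, a repressor of the smooth muscle programme. It had 0 counts in both P1 libraries labelled WT and was at 0.782 and 0.965 CPM in cKO at P1, at least 41.0-fold higher with a group of 2 libraries set to a floor of 3 counts. At P6 it was at 17.5 and 20.3 CPM in WT and had 0 counts in both cKO libraries, at least 821-fold lower, and at P8 it was at 49.8 and 48.6 CPM against 9.75 and 8.55 CPM (-2.43 ± 0.14, adjusted p = 1.02e-05). That order between the labels is again the one of *Actg2* and of the fibroblast sum. *Gata6* was called higher at P1 (3.82 ± 0.38) and lower at P6 (-1.02 ± 0.31), *Klf4* lower at P6 (-0.84 ± 0.09), and *Scai*, an inhibitor of MRTF, lower at P8 (-0.80 ± 0.12).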

How the data were processed

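RNA-seq of primary astrocytes was analysed in 12 libraries, with 2 biological repeats for each of 6 groups. The authors captured mRNA, their processing notes name HISAT2 and mm10 (GRCm38), and they deposited raw counts per gene, not normalized; the program, annotation and strand of the counting: not given in the sources used here. Here the table was TMM-normalized and fitted in edgeR 4.0.16 (R 4.3.3), with 1 mean per group, filterByExpr and Benjamini-Hochberg adjustment. The p-values measure the spread between these libraries. Contrasts were cKO minus WT per day, steps within a genotype, and differences of effects, which had no fold threshold. Replicates differed by more than counting noise (chi-square per degree of freedom 30.5 to 47.1).

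Lengths and overlaps came from GENCODE vM21, which held 18861 of 18903 identifiers, and promoters from RefSeq. The members and lists were chosen with earlier results of these data known. Named were all members; in other lists the 3 most abundant genes, and for contractile genes, relatives and SRF regulators up to 3 called genes per direction and day with the largest change, if their mean reached 1 CPM; and the 6 genes most alike in profile. The fit was tested on simulated data. Alternatives were DESeq2 1.42.0 or its size factors, no filter, compared groups alone, a replicate block, an unadjusted p, other fold thresholds, longest transcript lengths and each library left out. Promoters of *Tagln*, *Myh11* and *Actg2* were not analysed here. Some genes that the rule names are not reported here.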

Additional observations from a re-analysis of the deposited data

Results flagged for a closer look

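Genotype effects (log2, cKO minus WT) that differed between days by the test of the difference itself were found among the contractile genes as follows; the effect rose for 7.12% and fell for 8.19% of all genes tested from P1 to P6, 12.6% and 8.83% from P6 to P8, and 14% and 11.7% from P1 to P8. For *Actg2* the effect changed by -11.48 from P1 to P6, by 3.76 from P6 to P8 and by -7.72 from P1 to P8. For *Myh11* it changed by 2.22 from P6 to P8 and by 3.36 from P1 to P8, and for *Cnn1* by 0.49, 1.22 and 1.71 over the P1 to P6, P6 to P8 and P1 to P8 intervals. For *Cald1* it changed by 0.31 from P1 to P6 and by -0.26 from P6 to P8, for *Tpm2* by -0.60 from P1 to P6, and for *Tpm1* by -0.42 from P1 to P8. Groups of 2 libraries are too small for a search for outlying samples.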

How the results depend on the processing

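Of 39 called fold changes and differences of effects, 36 kept their call under DESeq2, its size factors, no low-count filter, the compared groups alone and the replicate block, and 3 lost it. With the compared groups alone, these were *Myh11* from P6 to P8 in WT (-1.39, adjusted p = 0.0771) and the *Cnn1* effect from P1 to P6 (0.49, adjusted p = 0.0737). With the replicate block it was the *Cald1* effect from P6 to P8 (-0.26, adjusted p = 0.0614). The cause was not tested. Only the *Acta2* effect from P6 to P8, not called, changed sign there, from 0.03 to -0.0011 with DESeq2 size factors and -0.0021 with DESeq2. Same-numbered samples did not deviate together (correlations of -0.06 to 0.04 over 15 pairs of groups), so the values showed no pairing by replicate number. Whether same-numbered samples shared a litter or a preparation cannot be read from these correlations. With the replicate number as a block the members lower in the effect from P6 to P8 went from 1 to 0, and no other call changed.

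Members called lower in the effect from P6 to P8 (1) were 2 with DESeq2 size factors, 3 with DESeq2 and 3 with an unadjusted p. Those higher from P6 to P8 in cKO (1) were 2 with DESeq2, 2 with the compared groups alone and 2 with an unadjusted p. Those lower in the effect from P1 to P8 (2) were 6 with the compared groups alone, and those lower in the effect from P1 to P6 (2) were 4 with an unadjusted p. With no fold threshold, a rule added after the data were seen, 8, 7 and 9 members were higher in cKO at P1, P6 and P8, 9 were higher from P1 to P6 and 8 lower from P6 to P8 in WT, and in cKO 7 were higher and 2 lower from P1 to P6 and 7 lower from P6 to P8. With a fold of at least 2, 1 member was higher at P1 and 1 at P6, 2 were higher and 0 lower from P1 to P6 in WT, 2 were lower from P6 to P8 in WT and 0 in cKO; a stricter or looser threshold makes these counts by construction.

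Over all genes, 160 were called lower at P1, against 263 with DESeq2 and 101 without P1 WT replicate 1. At P1, P6 and P8, 719, 1284 and 2012 genes were higher and 160, 1144 and 1502 lower; these were 1174, 2364 and 3507 and 527, 2239 and 2655 with no fold threshold, and with a fold of at least 2 the lower ones were 72, 714 and 925 and the higher ones at P6 and P8 784 and 1102. The steps from P1 to P6 and P6 to P8 gave 2197 and 1554 higher and 1953 and 1843 lower in WT and 1978 and 2127 higher and 1864 and 2185 lower in cKO. With no fold threshold they gave 3713 and 2909 higher and 3453 and 3417 lower in WT and 3542 and 3585 higher and 3363 and 3437 lower in cKO, and with a fold of at least 2 they gave 1429 and 925 higher and 1220 and 1111 lower in WT and 1060 and 1374 higher and 1177 and 1328 lower in cKO. An unadjusted p gave 1146 higher and 444 lower at P1, 2406 higher and 2509 lower (from 1277 and 1469) in the effect from P1 to P6, and 2653 lower (from 1584) in that from P6 to P8.

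With each library left out in turn, a lone sample was assumed to vary like the other groups. Members called in the effects ranged from 0 to 3 higher and 2 to 5 lower from P1 to P6, from 3 to 5 higher and 0 to 2 lower from P6 to P8, and from 2 to 4 lower from P1 to P8, and those higher from P6 to P8 in cKO from 1 to 2. In 5 of the 39 called values the call was lost at least once. Of the 61 values not called, 7 changed sign: *Tpm2* at P6 (-0.052 to 0.27), *Acta2* from P1 to P6 in cKO (-0.056 to 0.15), the effects from P1 to P6 on *Myl9* (-0.035 to 0.20) and *Lmod1* (-0.11 to 0.071), those from P6 to P8 on *Acta2* (-0.070 to 0.13) and *Tagln* (-0.091 to 0.087), and that from P1 to P8 on *Cald1* (-0.023 to 0.13). With the longest transcript's length, mean levels moved most for *Tpm1* and *Cald1*. With 2 libraries per group, small differences in the low *Myh11* counts are not well resolved.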
